A study of Caenorhabditis elegans with 12 samples.

Results

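DMSO is the solvent in which naringin (Nar), a citrus flavonoid, was given to worms, and its own effect on the miRNAs of high-glucose-induced (HGI) worms was read by setting 3 DMSO + Glu libraries against 3 Glu libraries. All worms were wild type *C. elegans* of strain N2. From the L4 larval stage they were kept for 5 d at 20 °C on NGM plates with OP50 bacteria, and were moved daily to fresh plates to take away progeny. Glu worms had 2% glucose in the plates, and DMSO + Glu worms had 2% glucose with 0.1% DMSO, so that glucose was common to both groups and DMSO was the only stated treatment that differed. The other 6 of the 12 small RNA libraries were 3 of Control worms, with neither glucose nor DMSO, and 3 of Nar + Glu worms, with 2% glucose and 25 μM Nar in 0.1% DMSO, and they are given only beside the comparison. RNA came from whole worms, so that fewer cells of a type and less RNA per cell cannot be told apart. The labels do not say whether replicates came from separate cultures, and p-values then measure only the spread between these samples.

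All 263 mature miRNA names of the count table were taken as members, out of 268 entries, since 5 names stood in 2 entries each and the entry with the higher total was kept. Total counts were 3033268 to 4029351 per library in Glu (median 3489296) and 3267311 to 3849726 in DMSO + Glu (median 3472063), so that depth was alike in both groups. With enough counts to be tested were 215 names, and the 48 others held 0.00691% of the counts of the 6 libraries.

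miRNAs are short RNAs that are cut from a hairpin precursor and guide Argonaute proteins to messenger RNAs, whose translation and stability they lower. Each precursor has a 5p and a 3p arm, of which 1 is usually kept and the other is mostly degraded. In worms the lin-4 and let-7 families time the larval stages, the miR-35 family is needed in embryos, miR-1 acts in muscle, and single miRNAs such as lsy-6 are made in a few neurons only.

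No miRNA passed the test of DMSO + Glu against Glu once p-values from edgeR (quasi-likelihood fit) were adjusted by the Benjamini-Hochberg method, with 0 of 215 (0%) under 0.05. The smallest adjusted p was 0.0990, for miR-4926. At an unadjusted p under 0.05 there were 22 miRNAs (10.2%), 10 with higher and 12 with lower levels in DMSO + Glu, where 10.75 would be expected with no difference at all. Against these 0 calls, DESeq2 gave 0 and edgeR's exact test gave 1, miR-4926, with an adjusted p of 0.0413 after Benjamini-Hochberg adjustment. The study's own thresholds for a DEmiRNA, a fold change over 1.5 in either direction with an unadjusted p under 0.05, were passed by 13 miRNAs (6.05%), 8 higher and 5 lower in DMSO + Glu, where log2FC is the log2 ratio of DMSO + Glu to Glu. With names of identical counts merged, 12 of 212 passed them, 7 higher and 5 lower. In 39 miRNAs (18.1%) the 3 libraries of a group lay all above or all below the other 3 in CPM, that is, counts set to a common library total and scaled with edgeR's TMM factors over the 12 libraries, with DMSO + Glu above in 14 and below in 25. This split turned with the scaling, as it was 16 above and 19 below with TMM over the 6 libraries and 20 above and 8 below with library totals alone. For single miRNAs below, overlap is given with TMM over the 12 libraries unless stated otherwise. With library totals alone, 16 miRNAs had an unadjusted p under 0.05, 11 higher and 5 lower.

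Most miRNAs lay close to equal levels. The log2FC ran from −0.88 to 1.08 with a median of −0.02, and 109 of the 215 miRNAs were within 0.2 of 0 in either direction. For 91 miRNAs the 95% interval of the log2FC lay wholly inside a fold change of 1.5 in both directions, and for 179 it lay inside a log2FC of 1. Among the 66 miRNAs with a mean count over 1000, the intervals of 46 lay inside this fold of 1.5. Among the 86 with a mean count under 100 it held for 13, so that for most of the scarce miRNAs a difference past this fold was within the interval at this depth. The same scarce miRNAs gave 10 of the 13 that passed the study's thresholds, as the plot of log2FC against level shows.

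**Figure D1:**
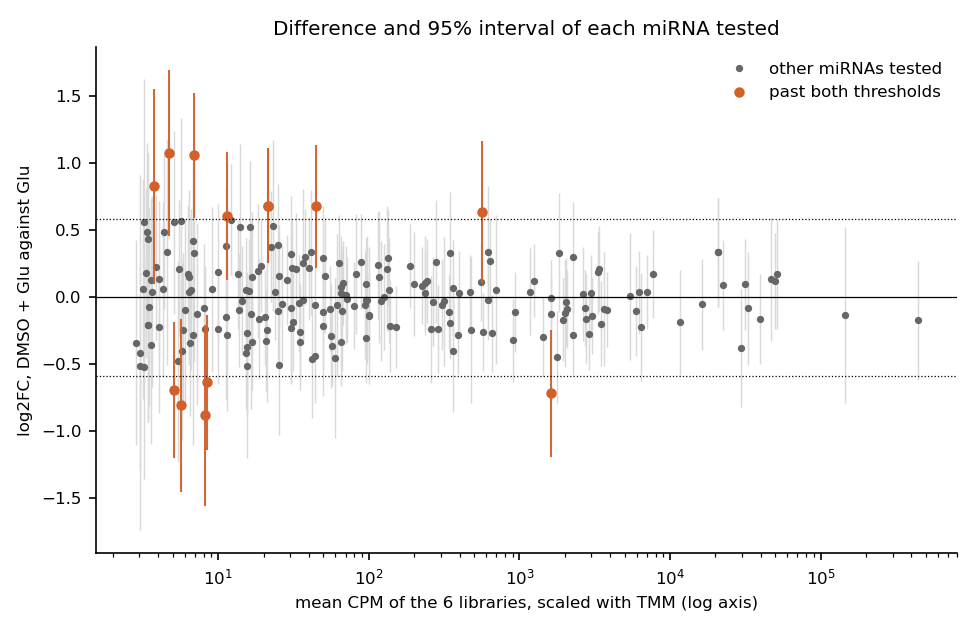
The log2FC of DMSO + Glu against Glu (vertical axis) of each of the 215 miRNAs tested, plotted against its mean CPM over the 6 libraries (log axis), with its 95% interval as a vertical line. Dotted lines mark a fold change of 1.5 in either direction, and the 13 miRNAs in orange, which passed the study's thresholds, lie mostly at low CPM, with miR-59-3p and miR-86-3p the exceptions over a mean count of 1000.

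A Glu and a DMSO + Glu library differed about as much as the Glu libraries did among themselves. The median absolute log2 difference over miRNAs was 0.15 to 0.21 between DMSO + Glu libraries, 0.25 to 0.28 between Glu libraries and 0.19 to 0.31 between a Glu and a DMSO + Glu library. The smallest of the 9 differences between groups, 0.19, was between replicate 1 of each group and was below every difference within Glu. Glu was the more variable group, with a median SD of 0.23 on the log2 scale against 0.16 in DMSO + Glu, and its SD was the larger in 142 of the 215 miRNAs.

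**Figure D2:**
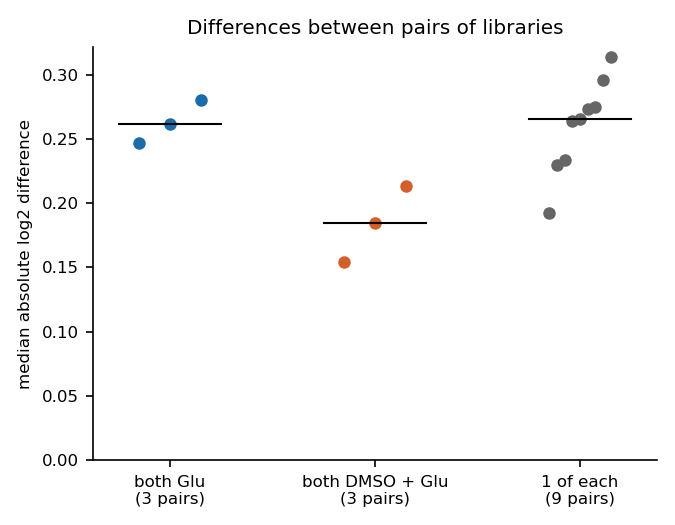
Median absolute log2 difference over the 215 miRNAs tested (vertical axis) for each of the 15 pairs of libraries: 3 pairs of Glu, 3 pairs of DMSO + Glu and 9 pairs with 1 library of each group, with the median of each kind as a line. The 9 pairs across groups, 0.19 to 0.31, reach over the range of the pairs within Glu, 0.25 to 0.28.

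The number of calls depended on single libraries. Without Glu replicate 3, 12 miRNAs of 219 tested passed an adjusted p of 0.05, 9 of them higher and 3 lower in DMSO + Glu, while leaving out each of the other 5 libraries gave 0 (edgeR with Benjamini-Hochberg adjustment). The number past the study's thresholds was 22 without Glu replicate 3 and 8 without Glu replicate 2. The 12 were miR-4926, miR-237-3p, miR-38-5p, miR-86-3p, miR-36-5p, miR-63-5p, miR-77-5p, miR-45-3p and miR-44-3p, which were higher, and miR-59-3p, lsy-6-3p and miR-75-3p, which were lower. In the samples labelled Glu, replicate 3 held the lowest miR-59-3p and lsy-6-3p and the highest miR-86-3p.

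Of the miRNAs higher in DMSO + Glu, miR-4926 had the smallest p. Its precursor lies in an intron of ari-1.3 on the same strand (chromosome I, 6054951 to 6055002, WBcel235). It had 13, 15 and 15 counts in the Glu libraries and 29, 33 and 33 in those of DMSO + Glu, or 4.19, 4.99 and 4.41 CPM against 8.42, 9.46 and 10.1 CPM. The groups did not overlap, and all 3 DMSO + Glu libraries were about equally high. The log2FC was 1.06 (standard error 0.211, 95% interval 0.59 to 1.53), with an adjusted p of 0.0990 (edgeR, Benjamini-Hochberg), over a range of 0.0309 to 0.608 for the adjusted p under its alternatives. Control worms had 6.51 to 10.8 CPM and Nar + Glu worms 6.70 to 7.51 CPM, so that Glu was the lowest of the 4 groups.

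miR-8201-5p, from an intron of hil-2, a linker histone gene (chromosome IV, 6294579 to 6294635), had the largest log2FC of all miRNAs tested. It had 3.55, 2.99 and 2.64 CPM in Glu and 4.64, 6.88 and 7.66 CPM in DMSO + Glu, from 9 to 11 and 16 to 25 counts. The groups did not overlap, with replicate 1 the nearest of the DMSO + Glu libraries to Glu. Its log2FC was 1.08 (standard error 0.280), with an adjusted p of 0.279 (edgeR, Benjamini-Hochberg). In Nar + Glu it stood at 5.27 ± 0.574 CPM and in Control at 2.52 ± 0.854 CPM (SD, n = 3 each).

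miR-1829b-3p and miR-1829c-3p had the same counts in every Glu and DMSO + Glu library and are 1 measurement. Their precursors lie apart on chromosome X, in an intron of F20D1.3 (14977119 to 14977178) and in an intron of piki-1, a gene for a phosphoinositide 3-kinase (15236362 to 15236423). The level was 19.7, 15.0 and 15.0 CPM in Glu and 25.8, 29.5 and 23.0 CPM in DMSO + Glu. The groups did not overlap, and the log2FC was 0.68 (standard error 0.194, edgeR adjusted p = 0.279 with Benjamini-Hochberg adjustment). Their opposite arms can be told apart and lay on the same side, with log2FC of 0.49 for miR-1829b-5p (adjusted p = 0.482) and 0.24 for miR-1829c-5p (adjusted p = 0.512, both edgeR with Benjamini-Hochberg adjustment).

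miR-237-3p is the scarcer arm of the precursor of miR-237-5p, which belongs to the lin-4 family (chromosome X, 8154084 to 8154182, between protein-coding genes). It was at 25.5, 35.3 and 43.5 CPM in Glu and at 44.99, 53.03 and 66.8 CPM in DMSO + Glu. The groups lay apart by a narrow gap, between Glu replicate 3 and DMSO + Glu replicate 1. With library totals alone they overlapped. The log2FC was 0.68 (standard error 0.208), with an adjusted p of 0.287 (edgeR, Benjamini-Hochberg). miR-237-5p, at 3109 ± 323 CPM in Glu and 3485 ± 439 CPM in DMSO + Glu (SD, n = 3 each), had a log2FC of 0.19 and its groups overlapped. Without Glu replicate 3 the adjusted p of miR-237-3p was 0.00307 (edgeR, Benjamini-Hochberg).

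Of the other miRNAs higher in DMSO + Glu, 2 were scarce arms of large precursor families. miR-38-5p, of the miR-35 cluster, had 9.02, 6.99 and 11.5 CPM in Glu and 13.9, 14.6 and 12.9 CPM in DMSO + Glu, with no overlap and a log2FC of 0.61. miR-56-5p had 1.61, 3.66 and 2.94 CPM in Glu and 5.51, 5.16 and 3.68 CPM in DMSO + Glu, from 5 to 19 counts, with a log2FC of 0.83. The gap between the groups of miR-56-5p was that between Glu replicate 2 and DMSO + Glu replicate 3, which had 11 and 12 counts. miR-86-3p was the most abundant of the 8, at 430, 283 and 617 CPM in Glu and 604, 736 and 701 CPM in DMSO + Glu. Its groups overlapped, as Glu replicate 3 exceeded DMSO + Glu replicate 1, and its log2FC was 0.64 (adjusted p = 0.302) with all libraries and 0.99 without Glu replicate 3 (adjusted p = 0.000135, edgeR with Benjamini-Hochberg adjustment). miR-64-3p came just short of the fold threshold, with 11.3, 8.98 and 9.11 CPM in Glu, 13.4, 14.9 and 15.0 CPM in DMSO + Glu and a log2FC of 0.58. The adjusted p was 0.302 for miR-38-5p and miR-64-3p and 0.368 for miR-56-5p (edgeR with Benjamini-Hochberg adjustment).

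**Figure D3:**
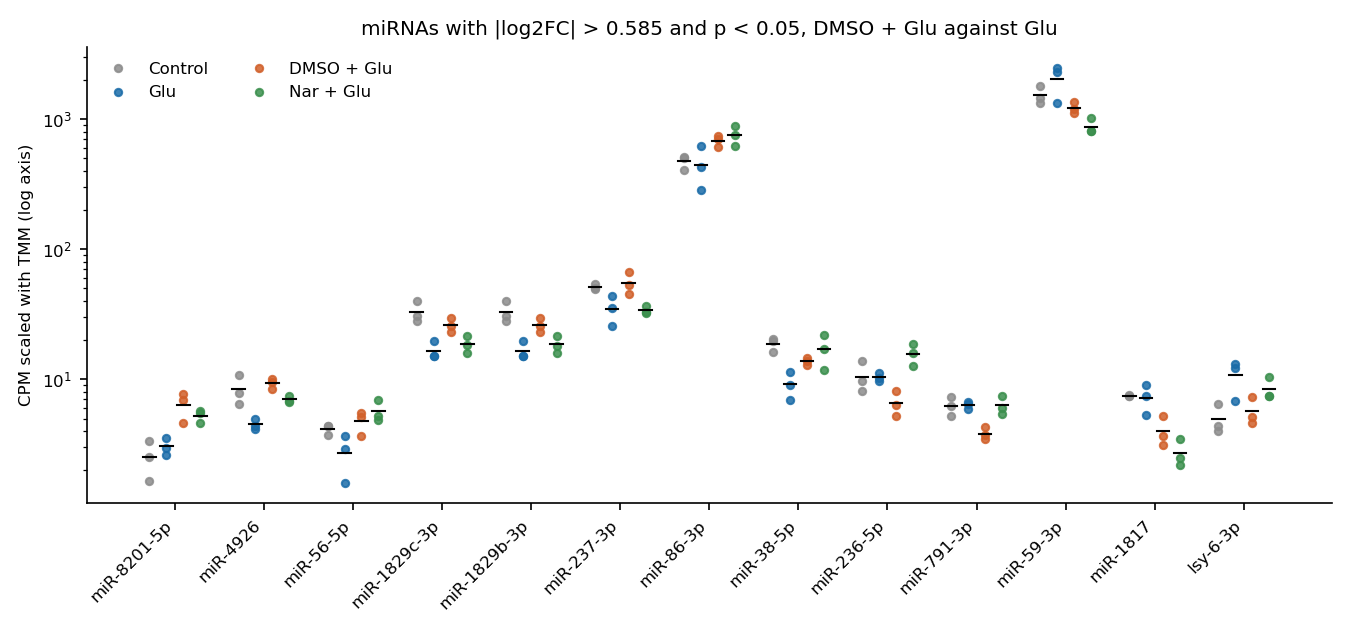
CPM scaled with TMM (vertical log axis) of the 13 miRNAs that passed the study's thresholds, in order of log2FC, with a point for each of the 3 libraries of each of the 4 groups and a line at the mean. In miR-4926 the DMSO + Glu points lie at 8.42 to 10.1 and the Glu points at 4.19 to 4.99, while in miR-59-3p, miR-86-3p and lsy-6-3p a Glu point falls among those of DMSO + Glu.

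Of the 5 miRNAs lower in DMSO + Glu past the study's thresholds, 2 belong to neurons. lsy-6-3p, which sets the left and right ASE taste neurons apart (chromosome V, 10647232 to 10647304, between protein-coding genes), had 13.2, 12.3 and 6.76 CPM in Glu and 7.26, 5.16 and 4.597 CPM in DMSO + Glu. The groups overlapped because Glu replicate 3, with 23 counts, fell among those of DMSO + Glu, which had 15 to 25. The log2FC was −0.88 (standard error 0.305, adjusted p = 0.302), and −1.10 without Glu replicate 3 (adjusted p = 0.0135, edgeR with Benjamini-Hochberg adjustment). miR-791-3p, of neurons that sense carbon dioxide (precursor outside protein-coding genes on chromosome X, 5809349 to 5809433), had 6.45, 6.65 and 5.87 CPM in Glu and 3.48, 3.73 and 4.29 CPM in DMSO + Glu. The groups did not overlap, with 20 counts in each Glu library and 12 to 14 in those of DMSO + Glu, and the log2FC was −0.69 (standard error 0.228, adjusted p = 0.302, edgeR with Benjamini-Hochberg adjustment). Control and Nar + Glu, at 6.24 ± 1.00 and 6.31 ± 0.996 CPM (SD, n = 3 each), stood at the level of Glu.

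miR-59-3p was the most abundant of these 5 (chromosome IV, 11309154 to 11309253, between protein-coding genes). It had 2279, 2471 and 1326 CPM in Glu and 1340, 1113 and 1185 CPM in DMSO + Glu. Glu replicate 3 lay among the DMSO + Glu libraries, and the other Glu libraries were well above them. The log2FC was −0.72 (standard error 0.214, adjusted p = 0.287) with all libraries and −0.90 without Glu replicate 3 (adjusted p = 8.56e-05, edgeR with Benjamini-Hochberg adjustment). Control was at 1514 ± 236 CPM and Nar + Glu at 874 ± 116 CPM (SD, n = 3 each).

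The remaining lower miRNAs were scarce. miR-1817 (chromosome I, 10869370 to 10869474) had 7.41, 8.98 and 5.29 CPM in Glu and 5.22, 3.15 and 3.68 CPM in DMSO + Glu, a log2FC of −0.80. Its groups were parted only by the small gap between Glu replicate 3 and DMSO + Glu replicate 1, which had 18 counts each. miR-236-5p (chromosome II, 7030180 to 7030277) had 10.3, 9.65 and 11.2 CPM in Glu and 8.13, 6.31 and 5.21 CPM in DMSO + Glu, with no overlap and a log2FC of −0.63. The adjusted p was 0.302 for both (edgeR with Benjamini-Hochberg adjustment). The opposite arm of the latter, miR-236-3p, which belongs to the miR-8 family and is the commoner arm, had a log2FC of −0.02, and its 3 DMSO + Glu libraries, at 94.1 to 98.7 CPM, fell inside the Glu range of 66.7 to 127 CPM.

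The let-7 family, which promotes the passage from larval to adult fates, had a negative log2FC in each of its 4 members with all 6 libraries, with a median of −0.34 against −0.02 over all miRNAs tested. An unadjusted p under 0.05 was had by 1 of the 4, let-7-5p, and an adjusted p under 0.05 by 0 (edgeR with Benjamini-Hochberg adjustment). let-7-5p, whose precursor lies outside protein-coding genes on chromosome X at 14744173 to 14744271, had 2139, 1678 and 2356 CPM in Glu and 1566, 1506 and 1389 CPM in DMSO + Glu. The groups did not overlap, and its log2FC of −0.44 (standard error 0.156, edgeR adjusted p = 0.302 after Benjamini-Hochberg adjustment) did not reach the study's fold threshold. It was −0.30 without Glu replicate 3, which was the highest of the Glu libraries.

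With TMM over the 12 libraries, miR-84-5p and miR-241-5p also did not overlap between the groups, the latter by a narrow gap. This makes 3 of 4 members beside 39 of 215 (18.1%) over all miRNAs. With library totals alone, the groups of miR-84-5p and of miR-241-5p overlapped. Over all miRNAs, DMSO + Glu then lay below in 8 rather than 25. miR-84-5p had 3195, 3092 and 3226 CPM in Glu and 2573, 2689 and 2489 CPM in DMSO + Glu, a log2FC of −0.27 with a 95% interval of −0.54 to 0.0013. miR-241-5p had 335, 328 and 575 CPM in Glu and 296, 301 and 326 CPM in DMSO + Glu, a log2FC of −0.40, with Glu replicate 3 far above the rest. miR-48-5p, the most abundant of the family, overlapped at 10110, 11191 and 15952 CPM in Glu and 10621, 10361 and 11186 CPM in DMSO + Glu, a log2FC of −0.19. Without Glu replicate 3 the median log2FC of the family was −0.13 and miR-48-5p had 0.0784. The adjusted p was 0.459 for miR-84-5p and miR-241-5p and 0.679 for miR-48-5p (edgeR with Benjamini-Hochberg adjustment). let-7-3p, the scarcer arm of let-7, had a log2FC of 0.20.

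In the lin-4 family, which times the early larval stages, the groups of both members overlapped. lin-4-5p had 636, 676 and 563 CPM in Glu and 550, 666 and 601 CPM in DMSO + Glu, with a log2FC of −0.02 and a 95% interval of −0.32 to 0.28.

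Of the miRNAs listed as neuronal, 4 of 5 had a negative log2FC, with a median of −0.28, and 2 of 5 passed the study's thresholds, beside 13 of 215 (6.05%) over all miRNAs. Besides lsy-6-3p and miR-791-3p, miR-790-5p was lower in each DMSO + Glu library with TMM over the 12 libraries, at 567, 647 and 554 CPM against 666, 766 and 735 CPM in Glu. With library totals alone its groups overlapped. Its log2FC was −0.27 (adjusted p = 0.459, edgeR with Benjamini-Hochberg adjustment). miR-124-3p, found in many sensory neurons, was scarce in both groups, at 3.52 to 9.67 CPM in Glu and 4.01 to 7.26 CPM in DMSO + Glu, and its groups overlapped. miR-234-3p went the other way, with a log2FC of 0.15 and overlapping groups. The median of the list ran from −0.60 to −0.04 over the alternatives, with the lower value reached without Glu replicate 3.

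The listed markers of intestine, muscle and embryos held 0 miRNAs with an unadjusted p under 0.05 by edgeR, beside 22 of 215 (10.2%) over all miRNAs. The 4 intestinal miRNAs had log2FC between −0.48 and −0.06, with a median of −0.18, and overlapping groups. miR-60-3p, which is made in the intestine, had 1641, 1924 and 1568 CPM in Glu and 1387, 1587 and 1670 CPM in DMSO + Glu. Of the muscle pair, miR-1-3p had a log2FC of −0.17 and its scarce opposite arm miR-1-5p had 0.22, both with overlapping groups. Embryos that worms held, or progeny left behind, would carry the miR-35 family, and its 8 members summed to 122746 to 157538 CPM in Glu and 122848 to 168324 CPM in DMSO + Glu, against 114862 to 138532 CPM in Control. These ranges overlapped, and the 8 members had a median log2FC of 0.13 with 6 positive, between −0.08 for miR-36-3p and 0.39 for miR-41-3p (adjusted p = 0.459, edgeR with Benjamini-Hochberg adjustment). Opposite arms of these precursors, miR-38-5p and miR-35-5p, did have an unadjusted p under 0.05, with log2FC of 0.61 and 0.52.

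**Figure D4:**
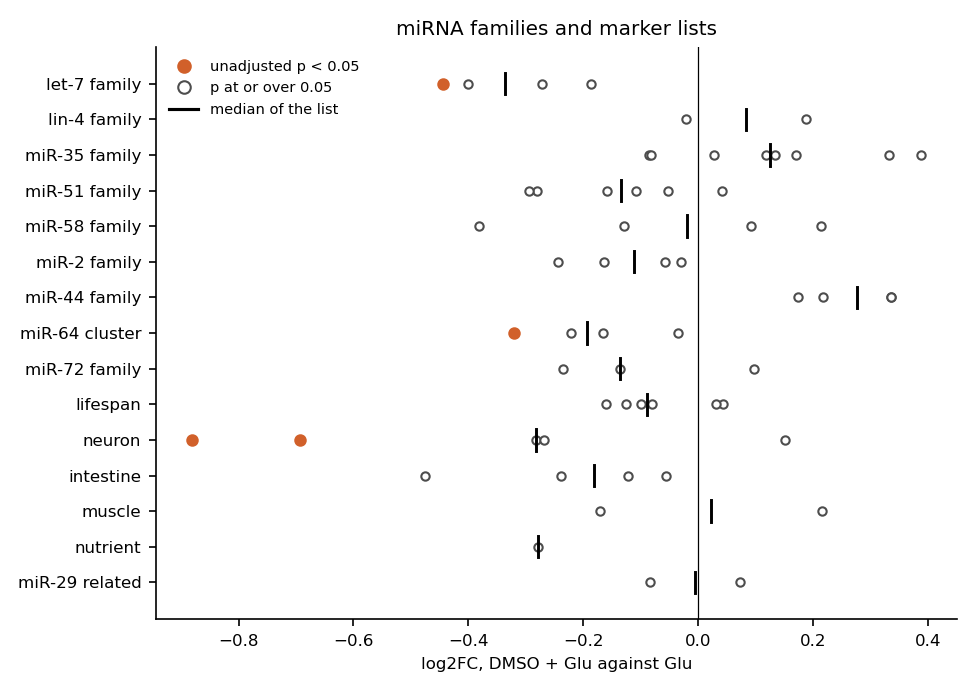
The log2FC of DMSO + Glu against Glu (horizontal axis) of each tested member of 15 families and marker lists, with the median of the list as a line and members with an unadjusted p under 0.05 filled in orange. All 4 let-7 members lie left of 0, with a median of −0.34, and all 4 entries of the miR-44 family lie right of it, while lsy-6-3p of the neuronal list lies farthest left at −0.88.

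Among the other families, that of miR-44 lay on the higher side in all 4 entries, with a median log2FC of 0.28. miR-45-3p and miR-44-3p have equal counts and are 1 measurement, with 15252, 17200 and 23074 CPM in Glu and 21507, 26283 and 20953 CPM in DMSO + Glu, a log2FC of 0.34 (adjusted p = 0.459, edgeR with Benjamini-Hochberg adjustment). Only Glu replicate 3 reached the level of DMSO + Glu, and without it the log2FC was 0.57 (adjusted p = 0.0442, edgeR with Benjamini-Hochberg adjustment). miR-61-3p, which acts on LIN-12 signalling in vulval cells, and miR-247-3p had log2FC of 0.17 and 0.22, with overlapping groups.

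The 4 commoner arms of the miR-64 cluster had negative log2FC with TMM, with a median of −0.19, while with library totals alone miR-64-5p was just above 0. An unadjusted p under 0.05 was had by 1 of the 4, beside 22 of 215 (10.2%) over all miRNAs. This was miR-229-5p, at 903, 1188 and 968 CPM in Glu and 711, 862 and 834 CPM in DMSO + Glu, a log2FC of −0.32 (adjusted p = 0.459, edgeR with Benjamini-Hochberg adjustment). Its groups did not overlap with TMM over the 12 libraries but did with library totals alone. None of the 6 members of the miR-51 family, which is needed in embryos, passed the study's thresholds, and their log2FC ran from −0.29 to 0.04 with a median of −0.13. miR-56-3p, the commoner arm of the precursor whose scarce arm miR-56-5p was higher, had 1514, 1716 and 1532 CPM in Glu and 1428, 1212 and 1174 CPM in DMSO + Glu, a log2FC of −0.29 (adjusted p = 0.459, edgeR with Benjamini-Hochberg adjustment). The groups of miR-56-3p did not overlap with TMM over the 12 libraries but did with library totals alone. The 4 members of the miR-2 family had log2FC of −0.24 to −0.03, of which miR-2-3p and miR-43-3p turned sign with library totals alone. Of 6 listed members of the miR-58 family, relatives of the fly miRNA bantam, 4 could be tested. These 4 had log2FC of −0.38 to 0.21, and the sign of their median, −0.02, turned with the scaling.

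miRNAs known for a part in lifespan had small log2FC. Of 7 on the list 6 could be tested, with log2FC of −0.16 to 0.04. The interval of miR-239a-5p was wide, with a log2FC of −0.13 and a 95% interval of −0.84 to 0.58. miR-71-5p, which lengthens life and acts through insulin signalling, had 43148, 42230 and 41387 CPM in Glu and 40875, 36225 and 34352 CPM in DMSO + Glu, a log2FC of −0.16 with a 95% interval of −0.50 to 0.18. Its groups did not overlap, but the gap between Glu replicate 3 and DMSO + Glu replicate 1 was small. With library totals alone they overlapped. miR-34-5p had a log2FC of 0.04, with a 95% interval of −0.23 to 0.31. miR-235-3p, which keeps blast cells at rest in starved larvae, had 380, 458 and 464 CPM in Glu and 373, 333 and 347 CPM in DMSO + Glu, a log2FC of −0.28 (adjusted p = 0.459, edgeR with Benjamini-Hochberg adjustment).

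The most abundant miRNAs did not separate the groups. miR-1-3p took 43.2%, 40.0% and 43.5% of the counts in Glu and 38.5%, 40.8% and 39.9% in DMSO + Glu. The difference of the mean shares, DMSO + Glu minus Glu, was −2.55 percentage points (p = 0.2 by a two-sided exact permutation test, where 0.1 is the smallest p that 3 libraries against 3 allow). Its log2FC was −0.17 with a 95% interval of −0.61 to 0.27. The next 4 by level, miR-58a-3p, miR-35-3p, miR-70-3p and miR-37-3p, had log2FC of −0.13 to 0.17 and overlapping groups. miR-58a-3p spread widely within Glu, with 221194 CPM in replicate 1, 138352 in replicate 2 and 94877 in replicate 3, against 117535 to 167816 CPM in DMSO + Glu, and its log2FC turned to 0.26 without Glu replicate 1.

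The balance of the 2 arms of a precursor does not depend on how libraries are scaled. Both arms had a mean count of at least 10 in 71 precursors, and the log2 ratio of scarcer to commoner arm was higher in DMSO + Glu in 48 of them and lower in 23, with a median difference of 0.16. Each ratio was then set against the mean of its precursor over the Glu and DMSO + Glu libraries. Per library, the median of these centred ratios was −0.07, −0.05 and −0.04 in Glu and −0.05, 0.09 and 0.13 in DMSO + Glu. Replicate 1 of DMSO + Glu fell among the Glu libraries and the others lay above them, a difference of 0.11 between the group means (two-sided exact permutation test, p = 0.2). Control libraries had 0.16 to 0.28 and Nar + Glu libraries 0.19 to 0.30, so that the Glu libraries were at the low end of the 12.

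**Figure D5:**
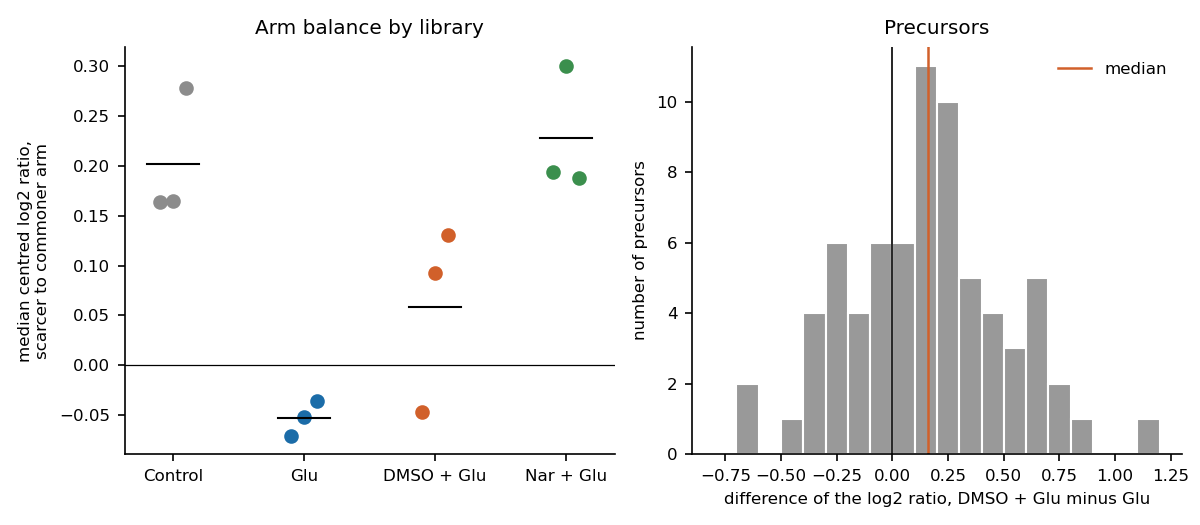
Left, the median over 71 precursors of the centred log2 ratio of scarcer to commoner arm (vertical axis) in each of the 12 libraries, with the mean of each group as a line. Right, the number of precursors by the difference of this ratio, DMSO + Glu minus Glu, with the median of 0.16 as an orange line. DMSO + Glu replicate 1, at −0.05, sits with the Glu libraries, and replicates 2 and 3, at 0.09 and 0.13, sit above them.

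The ratio did not overlap between groups in 9 of the 71 precursors (12.7%), above in 7 and below in 2. For miR-237 the ratio was −6.77, −6.45 and −6.30 in Glu and −6.04, −6.15 and −5.79 in DMSO + Glu on the log2 scale, a difference of 0.51. For miR-84, a let-7 family member, it was −6.39, −6.92 and −6.11 in Glu and −5.86, −5.83 and −5.76 in DMSO + Glu, a difference of 0.66. In the latter the arms had log2FC of opposite sign, 0.34 for miR-84-3p and −0.27 for miR-84-5p. miR-64 and miR-65, neighbours in 1 cluster, were also among the 7, with differences of 0.63 and 0.76, as were miR-56, miR-41 and miR-2. The 2 with a lower ratio were miR-1829b and miR-34, with differences of −0.20 and −0.37. The counts of miR-1829b-3p are shared with miR-1829c-3p of another precursor, so that the ratio of miR-1829b is not that of 1 precursor alone.

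By position, 211 of the 215 miRNAs tested could be placed on the WBcel235 assembly, 127 between protein-coding genes, 80 in introns and 4 in exons. In the miR-35 to miR-41 cluster (chromosome II, 11537608 to 11538404), which lies opposite an intron of Y62F5A.9, the 7 commoner arms had a median log2FC of 0.03. The 7 scarcer arms of the same precursors had a median of 0.39, with 6 positive with TMM, the highest being miR-38-5p at 0.61. This median is the value of miR-41-3p, the member of the miR-35 family, since miR-41-5p was the commoner arm of that precursor. In the miR-229 to miR-66 cluster (chromosome III, 2172452 to 2173206) all 4 commoner arms were negative with TMM, though miR-64-5p was not with library totals alone, and 3 of the 4 scarcer arms were positive, from miR-64-3p at 0.58 down to −0.28. Commoner arms were also negative in both members of the miR-48 and miR-241 cluster (chromosome V), with a median of −0.29, and in all 3 of the miR-73 to miR-75 cluster (chromosome X), with a median of −0.24. No member of these clusters passed an adjusted p of 0.05 with all 6 libraries (edgeR with Benjamini-Hochberg adjustment).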

How the data were processed

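The authors deposited raw counts per mature miRNA (NextSeq 500 small RNA libraries, adapters and fragments under 17 nt removed with Cutadapt 1.14, quantified with mirdeep2), on WBcel235 per the labels; a miRBase release was not found in these sources. Counts in the table equalled those of the 12 single files, and no column was left out. From them, edgeR 4.0.16 (R 4.3.3, filterByExpr with a minimum count of 10, TMM, quasi-likelihood fit of the 6 libraries, no block) gave log2FC, standard errors, 95% intervals and p-values, adjusted by the Benjamini-Hochberg method over 215 miRNAs. Single values were tested by exact permutation. Arm ratios used a pseudocount of 0.5. Named were the 12 miRNAs with the smallest p, the 5 largest differences each way past the thresholds without overlap, the 5 most abundant, list members past the thresholds and the opposite arms of the 12; other names were chosen after their values were seen. Members and lists were chosen with earlier results of these data known, and the arms of miR-54, miR-55, miR-56 and miR-240 and the members of the miR-64 cluster (miR-63-3p was dropped) were corrected after values were seen. The fit was tested on simulated data. Sequences were not used here. Alternatives were the size factors of DESeq2, library totals, DESeq2 1.42.0, edgeR's exact test, no low-count filter, at least 100 counts on average, all 12 libraries, a replicate block, the first of repeated entries, identical entries merged, no miR-1-3p, no fold threshold and each library left out.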

Additional observations from a re-analysis of the deposited data

How the results depend on the processing

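Of 426 log2FC values of the 26 named and tested miRNAs over the alternatives, 409 kept their direction and side of the adjusted threshold, 6 newly passed it and 11 turned sign. The number past the study's thresholds, 13, was 8 with DESeq2, 3 with a mean count of at least 100 (129 miRNAs tested), 22 with no fold threshold and 8 to 22 with a library left out. Calls by adjusted p, 0, were 1 with edgeR's exact test and 0 to 12 with a library left out. The median log2FC ran from −0.05 to 0.04, the miR-1-3p share from −3.67 to −1.92 percentage points and the arm balance from 0.0757 to 0.164 with a library left out. The arm balance alternatives were chosen after seeing the data. With a library left out, miR-58a-3p ran from −0.34 to 0.26, miR-37-3p from −0.0440 to 0.31, miR-64-5p from −0.15 to 0.0679 and miR-236-3p from −0.20 to 0.22, and these turned sign. miR-64-5p also had 0.0160 with library totals. miR-236-3p had 0.0698 with library totals, 0.00854 with no filter, 0.00266 with a mean count of at least 100, and 0.0237 with the replicate block. The cause was not tested. With all 12 libraries in 1 fit, 30 miRNAs had an unadjusted p under 0.05, 9 higher and 21 lower. Whether replicate numbers pair the samples was not tested. The same-number correlations of deviations were 0.175, 0.021 and 0.183, and those of unlike numbers ran from −0.312 to 0.184. The highest, 0.184, was that of Glu replicate 2 with DMSO + Glu replicate 1. With the number as a block 0 miRNAs passed the adjusted threshold and 14 the study's thresholds. At these depths, miRNAs with a mean count under 100 had a median standard error of 0.253 on the log2 scale, and those over 1000 had 0.151.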
